A study of Mus musculus with 12 samples.

Results

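The genes examined were 10 markers of blood vessel endothelium, namely *Pecam1*, *Cdh5*, *Kdr*, *Flt1*, *Tek*, *Tie1*, *Emcn*, *Eng*, *Vwf* and *Erg*. They were taken by gene name from tables of 34508 genes in mouse tumors and 40077 genes in cultured cells, and all 10 were present in each. Myc-CaP is a mouse prostate carcinoma line derived from a mouse that carried a MYC transgene. Tumors had been raised under the skin of male FVB mice and treated by mouth, 3 times per week, with YJ1206 at 100 mg/kg or with its vehicle of PEG400, Cremophor EL and PBS. YJ1206 is a PROTAC degrader, a compound that directs the kinases CDK12 and CDK13 to proteolysis. The cultured Myc-CaP cells had received 1 μM YJ1206 for 24 hours or DMSO. Each of the 4 groups held 3 libraries. All 12 libraries came from 1 tumor line, so the tumor is a transplant of a single line into a host. Host and tumor cell reads were not separated, so the origin of the endothelial reads in the tumors was not tested. The ages of the mice were not given in the sources used here.

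Endothelial cells line blood vessels and hold to their neighbours through VE-cadherin (*Cdh5*) and PECAM-1 (*Pecam1*). They sense vascular endothelial growth factor (VEGF) through the receptor tyrosine kinases encoded by *Kdr* and *Flt1*, and angiopoietins through *Tek* (TIE2) with its partner *Tie1*. On GRCm38 (GENCODE vM21) *Cdh5* lies on chr8:104101625-104144511 (plus strand), *Kdr* and *Flt1* on chr5:75932827-75978458 and chr5:147561604-147726011 (minus), *Tek* and *Tie1* on chr4:94739289-94874976 (plus) and chr4:118471191-118490061 (minus), and *Eng* on chr2:32646595-32682669 (plus). *Pecam1* lies on chr11:106654217-106750628 (minus), *Emcn* on chr3:137341067-137432185 (plus), *Vwf* on chr6:125546774-125686679 (plus) and *Erg* on chr16:95359169-95586593 (minus). Values are sums over each whole gene. A tumor that grows beyond what diffusion can feed draws in vessels from its host, and the sum of endothelial transcripts in a piece of tumor depends on how many such cells it holds and on how much RNA each contains. In bulk tumor RNA, fewer cells of a type and less RNA per cell cannot be told apart.

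Libraries held 15391544 to 26928365 counts in tumors and 13936902 to 18519926 in cells. The methods call the study's replicates biologically independent in general terms, but which animals or cultures gave these libraries was not stated, so p-values measure the spread between the libraries. Library 3 of each tumor group lay between libraries 1 and 2. Of 415 genes that differed more than 2-fold between vehicle libraries 1 and 2 (mean of at least 5 CPM, counts scaled to library size), 412 were intermediate in library 3, and in the YJ1206 group 186 of 190 were. Of the members, 7 of 10 were intermediate in vehicle library 3 and 3 of 10 in YJ1206 library 3. They were counted without the 2-fold and 5 CPM limits, so these shares cannot be set beside those of the genes above. Skeletal muscle transcripts summed to 857, 31.4 and 530 CPM in vehicle libraries 1, 2 and 3, and to 13.7 to 15.0 CPM in the YJ1206 tumors. The cell libraries carried numbers from separate series for DMSO and YJ1206, so treatment and library series cannot be told apart there. The labels name polyA RNA for cells and total RNA for tumors, although the library protocol is the same ribosomal depletion for both.

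The level of the members in the cultured tumor cells was examined first. *Cdh5*, *Kdr*, *Tek*, *Tie1* and *Emcn* had 0 counts in each of the 6 cell libraries. In the vehicle tumors these genes had 2342, 1672, 241, 520 and 391 counts summed over the 3 libraries. A count of 0 allows up to 3 counts per library, or 0.151 to 0.155 CPM in DMSO cells, which covers counting error only. Against that limit, the mean CPM of the vehicle tumors was at least 237-fold higher for *Cdh5*, at least 169-fold for *Kdr*, at least 52.4-fold for *Tie1*, at least 40.0-fold for *Emcn* and at least 23.7-fold for *Tek*. Tumor and cell tables were normalised separately, so these ratios set levels across tables and were not tested.

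The other 5 members had few reads in cells. *Erg*, an ETS-family transcription factor that maintains endothelial identity, had 1 count over the 3 DMSO libraries, and its vehicle to DMSO ratio was 218, with a 95% counting interval of 38.8 to 8644. *Pecam1* had 5 counts in DMSO cells and a ratio of 309 (interval 132 to 953). *Vwf*, which encodes the von Willebrand factor that endothelial cells store and release for platelet adhesion, had 7 counts and a ratio of 168 (81.4 to 419). These 3 genes were therefore far above the cell level in tumors. *Flt1* had 20 counts in DMSO cells, a ratio of 114 (73.7 to 187). *Eng*, encoding the TGF-β family coreceptor endoglin, stood apart with 33, 45 and 47 counts in the DMSO libraries and a ratio of 6.90 (5.73 to 8.38). Its DMSO level was 13.5% of the vehicle tumor level in TPM, while the other members reached at most 1.69%. Exons of *Eng* overlap those of *Fpgs* on the opposite strand, a gene with 3640 counts over the 6 tumor libraries, and whether counting used strand was not given in the sources used here. Summed over the 10 members, CPM was 175, 207 and 186 in vehicle tumors against 2.00, 2.84 and 3.22 in DMSO cells.

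**Figure D1:**
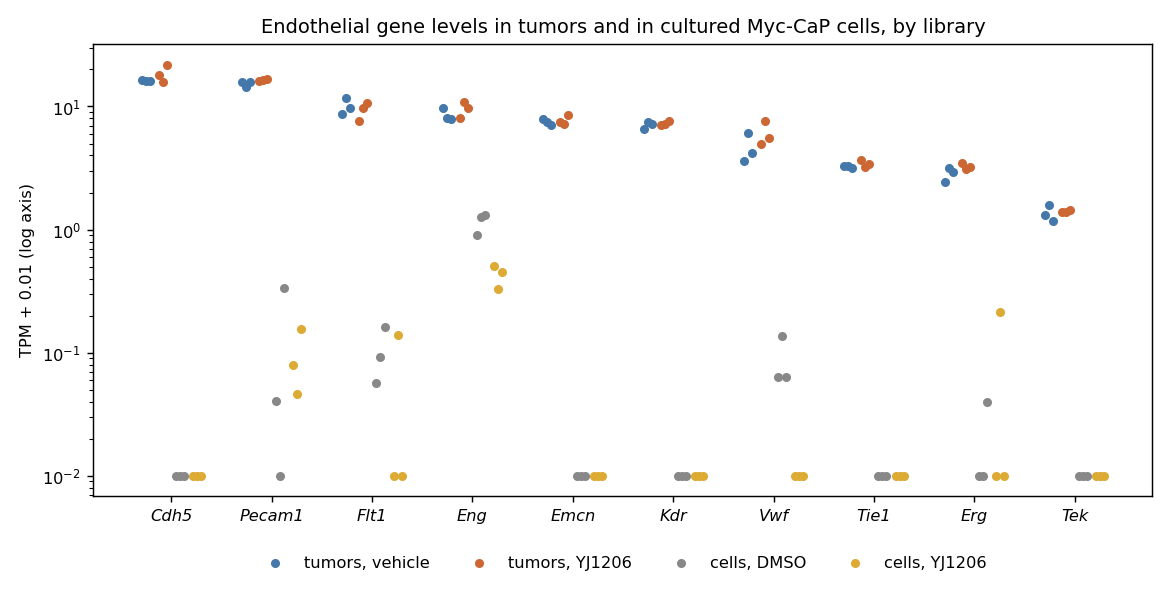
TPM + 0.01 (log axis) of each endothelial gene in every library, in tumors (vehicle, YJ1206) and cultured cells (DMSO, YJ1206), ordered by the vehicle mean; a gene at 0 is drawn at 0.01. Every tumor library lies above every cell library for all 10 genes, and *Eng* is the member with the highest cell level, at 0.889 to 1.30 TPM in DMSO cells.

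TPM, a share of transcripts that is scaled by transcript length, allows levels of different genes to be compared. In vehicle tumors *Cdh5* was at 16.1 ± 0.191 TPM (SD, n = 3) and *Pecam1* at 15.3 ± 0.833. The VEGF receptors followed at 10.1 ± 1.57 for *Flt1* and 7.09 ± 0.478 for *Kdr*, with *Eng* at 8.53 ± 1.01 and *Emcn*, encoding the sialomucin endomucin of capillaries and veins, at 7.49 ± 0.411 between them. The junction genes *Cdh5* and *Pecam1* thus led the order, and *Tek* closed it. *Vwf* was at 4.63 ± 1.29 TPM, *Tie1* at 3.24 ± 0.0734, *Erg* at 2.83 ± 0.364 and *Tek* at 1.35 ± 0.203. *Cdh5* and *Pecam1*, *Flt1* and *Eng*, and *Emcn* and *Kdr* were neighbours whose means differed by less than the larger of their SDs. The order in YJ1206 tumors was the same except that *Eng* (9.52 ± 1.47 TPM) stood before *Flt1* (9.30 ± 1.54), a difference within their spread.

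RefSeq promoter windows (GRCm38.p6, 250 bases before to 50 after each start) were held for 7 members, *Kdr*, *Flt1*, *Tek*, *Tie1*, *Emcn*, *Eng* and *Erg*, in 9 windows. The letters AGGAAG, a common core of binding sites for ETS factors such as ERG, were searched on both strands together with CCGGAA, another ETS-type core, and the letters AGATAA, typical of sites for factors of the GATA family. AGGAAG was found in 5 of the 9 windows, against 35.4% of all 32851 windows. CCGGAA was in 1 (*Kdr*, beginning 153 bases before the start) against 14.9%, and AGATAA was in 2 (*Tek* and 1 *Erg* start) against 11.2%. The 4 stretches below are shown because they hold the AGGAAG matches that lie upstream of *Flt1*, *Tie1*, *Emcn* and *Eng*, 4 genes detected in every tumor library. Capitals mark AGGAAG or, where the match is on the other strand, CTTCCT. A match describes letters in the window and was not tested for binding.
Flt1, chr5:147726052-147726151, minus strand: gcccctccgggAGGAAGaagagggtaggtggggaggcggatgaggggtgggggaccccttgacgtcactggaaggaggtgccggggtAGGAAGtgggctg
Tie1, chr4:118490021-118490080, minus strand: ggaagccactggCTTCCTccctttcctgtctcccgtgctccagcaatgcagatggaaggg
Emcn, chr3:137340898-137340997, plus strand: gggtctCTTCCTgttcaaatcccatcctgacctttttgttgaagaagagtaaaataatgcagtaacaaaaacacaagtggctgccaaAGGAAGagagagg
Eng, chr2:32646525-32646594, plus strand: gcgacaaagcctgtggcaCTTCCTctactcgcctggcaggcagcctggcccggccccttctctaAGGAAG
In *Flt1* the matches begin 129 and 53 bases before the start, in *Emcn* 174 and 93, in *Eng* 52 and 6, and in *Tie1* 219. The remaining window with AGGAAG was the *Erg* start on chr16:95459299-95459598, where it begins 40 bases upstream.

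The tumors were then compared to ask whether YJ1206 changed the endothelial transcripts. Changes in the members were small or not detected. *Cdh5* was 1.21-fold higher in YJ1206 tumors (95% interval 1.06 to 1.37), and it was the only member called by edgeR's quasi-likelihood test with Benjamini-Hochberg adjustment. The rest did not pass the test, with fitted log2 fold changes from -0.05 for *Flt1* to 0.44 for *Vwf*. With 1 of 10 called, the members were read against a background in which 26.8% of the 15558 genes tested were called (11.9% higher and 14.9% lower). An unadjusted p under 0.05 was reached by 1 of 10 members and by 39.8% of all genes. Fitted values were above 0 for 9 of 10 members and for 51% of all genes, and the median log2 fold change was 0.17 over the members and 0.01 over all genes. No member's 95% interval reached a log2 fold change of 1 in either direction. The nearest bound was the upper limit of *Vwf*, at a 2.00-fold level.

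**Figure D2:**
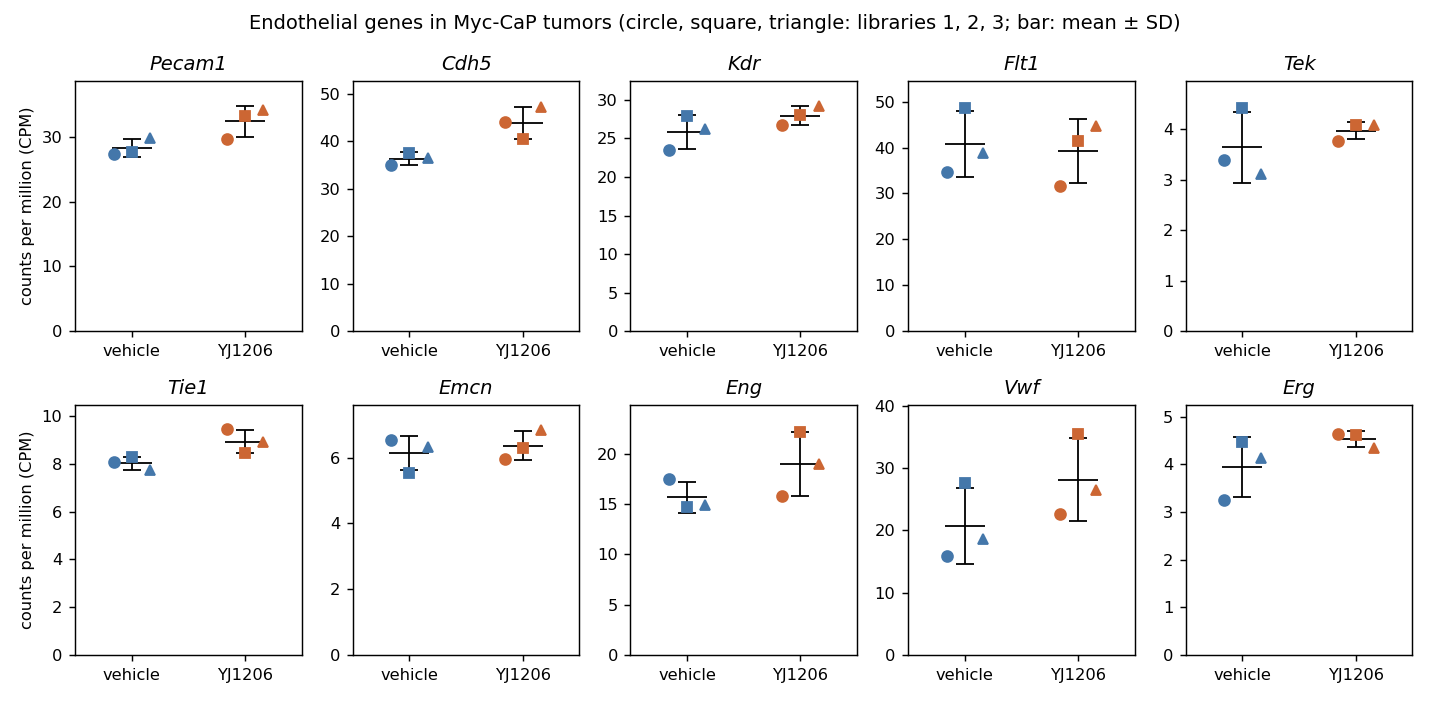
CPM of each endothelial gene in the 3 vehicle and 3 YJ1206 tumor libraries (points, shaped by library number), with the mean and SD of each group as bars; axes start at 0. *Cdh5* and *Tie1* are the 2 members with all YJ1206 libraries above all vehicle libraries.

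Among junction and adhesion genes, *Cdh5* was at 35.0, 37.6 and 36.4 CPM in vehicle tumors and at 44.0, 40.5 and 47.2 CPM in YJ1206 tumors. The groups did not overlap, which was also true of 44.6% of all genes tested. Its log2 fold change was 0.27 (SE 0.080) with an edgeR adjusted p of 0.0427, close to the threshold. In TPM the *Cdh5* groups did overlap, at 15.9 to 16.3 in vehicle tumors and 15.7 to 21.9 in YJ1206 tumors. The call was lost without vehicle library 1 (adjusted p = 0.101), vehicle library 3 (0.139), YJ1206 library 1 (0.0974) or YJ1206 library 3 (0.169), and with libraries 1 and 2 alone (0.406). *Pecam1* was at 27.4, 27.6 and 29.9 CPM in vehicle tumors and at 29.8, 33.2 and 34.2 CPM in YJ1206 tumors. A single YJ1206 library fell within the vehicle range, and the log2 fold change of 0.20 (SE 0.085) did not pass the test (adjusted p = 0.132). *Emcn* was at 6.53, 5.55 and 6.33 CPM against 5.95, 6.31 and 6.86 CPM, with overlapping groups and a log2 fold change of 0.06 (SE 0.13, adjusted p = 0.789).

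*Vwf* had the largest spread of the members in each tumor group, with a coefficient of variation in TPM of 27.9% in vehicle and 22.5% in YJ1206 tumors. It was at 15.9, 27.6 and 18.6 CPM in vehicle tumors and at 22.6, 35.5 and 26.4 CPM in YJ1206 tumors. Library 2 was the highest of each group, and the groups overlapped because vehicle library 2 exceeded YJ1206 libraries 1 and 3. The log2 fold change was 0.44 (SE 0.24, adjusted p = 0.216), and its interval ran from a 0.921-fold to a 2.00-fold level. Without vehicle library 2 it was 0.72 with an edgeR adjusted p of 0.0217, so the result changed with that library. It also changed with all libraries kept and replicate number added as a block (0.46, edgeR adjusted p = 0.0240).

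The VEGF receptors were not called. VEGFR2, the main signalling receptor for VEGF-A, is encoded by *Kdr*, which was at 23.5, 27.9 and 26.2 CPM in vehicle tumors and at 26.7, 28.1 and 29.2 CPM in YJ1206 tumors. The groups overlapped, and the log2 fold change of 0.11 (SE 0.092) gave an adjusted p of 0.407. VEGFR1, which binds VEGF-A tightly and also exists as a soluble decoy, is encoded by *Flt1*. It was at 34.7, 48.7 and 38.8 CPM in vehicle tumors and at 31.6, 41.4 and 44.8 CPM in YJ1206 tumors, overlapping ranges with a log2 fold change of -0.05 (SE 0.17, adjusted p = 0.844). Its direction turned without vehicle library 2 (0.10) and without YJ1206 library 1 (0.08). Membrane and soluble forms cannot be told apart in these values per gene. The intervals allowed a change of 0.931-fold to 1.25-fold for *Kdr* and of 0.736-fold to 1.26-fold for *Flt1*.

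Of the angiopoietin receptors, *Tie1* was at 8.07, 8.29 and 7.76 CPM in vehicle tumors and at 9.45, 8.46 and 8.92 CPM in YJ1206 tumors. These groups did not overlap, as for 44.6% of all genes tested, and the log2 fold change of 0.15 (SE 0.11) did not pass the test (adjusted p = 0.340). *Tek* was at 3.38, 4.43 and 3.10 CPM against 3.77, 4.07 and 4.07 CPM, the YJ1206 values lying inside the vehicle range, and the log2 fold change was 0.12 (SE 0.18, adjusted p = 0.670). *Eng* was at 17.4, 14.7 and 14.9 CPM in vehicle tumors and at 15.8, 22.2 and 19.0 CPM in YJ1206 tumors. The groups overlapped at YJ1206 library 1, with a log2 fold change of 0.28 (SE 0.14, adjusted p = 0.196). *Erg* was at 3.24, 4.46 and 4.14 CPM against 4.64, 4.61 and 4.33 CPM, with overlapping groups and a log2 fold change of 0.20 (SE 0.17, adjusted p = 0.419).

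**Figure D3:**
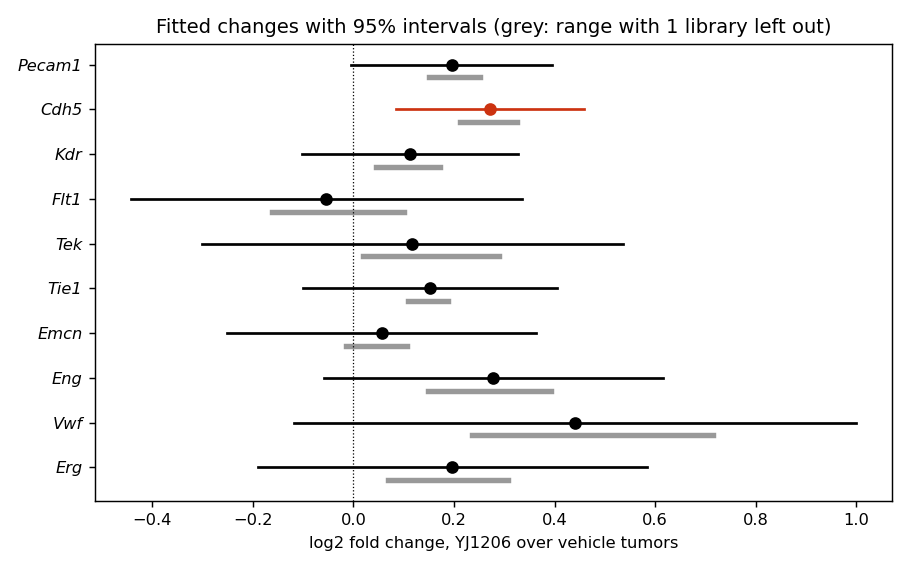
Log2 fold change of each endothelial gene in YJ1206 over vehicle tumors, with its 95% interval (line) and the range of values when 1 library was left out (grey bar); red marks an edgeR adjusted p under 0.05. *Cdh5* alone is red, at 0.27, and *Vwf* has the widest interval.

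Skeletal muscle transcripts, high in vehicle libraries 1 and 3, moved with the treatment groups, and 8 of 8 muscle genes tested were lower in YJ1206 tumors. Their part in the member values was not tested. With vehicle library 2, at 31.4 CPM of muscle transcripts, as the only vehicle library, *Cdh5* was at a log2 fold change of 0.22, *Vwf* at 0.03 and *Tek* at -0.16. In that fit the members' median was 0.07 and the median of all genes 0.02. The lone vehicle library is assumed there to vary like the others. With libraries 1 and 2 of each group, 0 members were called and 0 reached an unadjusted p under 0.05, while 3068 of 15684 genes tested reached that level and 1 gene was called.

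The balance among members did not separate the groups. When each member was set against the mean of the other 9 on the log2 CPM scale, the groups overlapped for all 10, with differences between groups from -0.26 for *Flt1* to 0.31 for *Vwf*. Over the 6 tumor libraries, Pearson's r between pairs of members ranged from -0.40 to 0.85 with a median of 0.49 over 45 pairs, points that share their libraries and depth. The mean of the 10 members on the log2 CPM scale ran from 3.70 in vehicle library 1 to 4.03 in YJ1206 library 2. Of 14226 genes with a mean of at least 1 CPM, the 10 whose log2 CPM followed that mean most closely over the 6 libraries were *Coro6*, *Sft2d3*, *St6galnac4*, *Micos13*, *Atp5md*, *Yipf2*, *Cd300lf*, *Atg4c*, *Ggps1* and *Cars2*, each with r of at least 0.989. None of 40 further endothelial genes was among the 100 closest. These correlations are a description over 6 libraries of 2 treatment groups.

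In cultured cells *Eng* was the only member with enough counts to be tested. It was at 1.69, 2.32 and 2.37 CPM in DMSO cells and at 1.15, 0.755 and 1.08 CPM after YJ1206, and all treated libraries lay below all controls. The log2 fold change was -1.09 (SE 0.31, edgeR adjusted p = 0.00241), in a comparison where 76.1% of 11826 genes were called and 38.3% were called lower. These values rest on 10 to 16 counts per YJ1206 library. The remaining 9 members stayed at 0 to 11 counts in every cell library of either group. *Eng* thus fell in cells, where its level was low, and had a fitted value above 0 in tumors. The difference between the 2 responses, 1.38 on the log2 scale (tumors minus cells), had an edgeR adjusted p of 0.00134 in a fit over 11307 genes and 12 libraries that was added after the data were seen.

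A wider list of 44 endothelial genes, of which 42 were tested, changed in both directions. In YJ1206 tumors 3 rose, 4 fell and 35 were not called, shares below those of all genes, and the median log2 fold change was 0.16. The genes that rose were *Clec14a*, a C-type lectin of tumor endothelium, *Sox18*, a transcription factor of endothelial development, and *Adgrl4*, an endothelial adhesion G protein-coupled receptor. *Clec14a* was at 2.34, 2.70 and 2.00 CPM in vehicle tumors and at 4.64, 3.58 and 4.07 CPM in YJ1206 tumors (log2 fold change 0.79, SE 0.19, edgeR adjusted p = 0.0205). *Sox18* went from 3.34, 2.40 and 2.52 CPM to 4.37, 3.98 and 5.05 CPM (0.70, SE 0.19, adjusted p = 0.0341). *Adgrl4* went from 6.45, 6.98 and 5.62 CPM to 9.67, 8.59 and 10.6 CPM (0.59, SE 0.14, adjusted p = 0.0188). In each of these 3 genes the groups did not overlap, and each had 0 counts in all 6 cell libraries. Each call was lost without vehicle library 3, YJ1206 library 1 or YJ1206 library 3, with libraries 1 and 2 alone, with vehicle library 2 as the only vehicle library, and with a replicate block (edgeR adjusted p of 0.0546 for *Clec14a*, 0.0614 for *Sox18* and 0.0591 for *Adgrl4*). *Sox18* was also lost without vehicle library 2 (0.0594 adjusted) or YJ1206 library 2 (0.0607 adjusted) and by limma on log2(TPM + 1) (0.0526 adjusted) and log2(TPM + 0.1) (0.0557 adjusted). By limma *Adgrl4* dropped to 0.18 on log2(TPM + 1) (adjusted p = 0.510) and to 0.21 on log2(TPM + 0.1) (adjusted p = 0.501).

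The 4 endothelial genes that fell were expressed in the cultured tumor cells. *Notch4*, a Notch receptor of endothelium, was at 2380 to 2429 counts per DMSO library and fell in tumors from 210, 281 and 235 CPM to 82.0, 146 and 125 CPM (log2 fold change -1.04, SE 0.21, edgeR adjusted p = 0.0108). *Efnb2*, the ephrin that marks arteries, had 2152 to 2306 counts in DMSO cells and fell in tumors from 54.8, 42.7 and 50.4 CPM to 35.9, 34.9 and 35.9 CPM (-0.47, SE 0.099, adjusted p = 0.0133). *Podxl*, a sialomucin, had 8585 to 8886 counts in DMSO cells and fell from 461, 318 and 403 CPM to 304, 282 and 297 CPM (-0.42, SE 0.13, adjusted p = 0.0452). *Tm4sf1*, a tetraspanin-like membrane protein, had 88 to 103 counts in DMSO cells and fell from 17.4, 14.4 and 14.3 CPM to 11.2, 11.7 and 11.6 CPM (-0.41, SE 0.11, adjusted p = 0.0313). All 4 also fell in cultured cells, by log2 fold changes of -2.57 for *Notch4*, -1.32 for *Efnb2*, -0.07 for *Podxl* and -3.31 for *Tm4sf1*. The cells they come from in the tumor cannot be told apart in bulk RNA. With vehicle library 2 as the only vehicle library, *Podxl* was at -0.11, *Efnb2* at -0.27 and *Tm4sf1* at -0.32, none of them called, while *Notch4* was called there and lost its call with libraries 1 and 2 alone (adjusted p = 0.160). *Podxl* and *Tm4sf1* also lost their calls without vehicle library 1, vehicle library 3 or any 1 YJ1206 library, *Podxl* by limma on log2(TPM + 1) (adjusted p = 0.0557) and *Tm4sf1* with a replicate block (edgeR adjusted p = 0.0694). *Efnb2* lost its call without vehicle library 3 (0.0624 adjusted), YJ1206 library 2 (0.0507 adjusted) or YJ1206 library 3 (0.0596 adjusted). With libraries 1 and 2 alone, none of the 4 was called.

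Sorting the list by its level in DMSO cells, a split chosen after the data were seen, is given as counts beside the 11.9% of all genes called higher and 14.9% called lower, and the difference between the classes was not tested. Of 27 genes at or under 3 counts in every DMSO library, 3 rose and 0 fell (median log2 fold change 0.27). Of 7 genes whose DMSO CPM was 10% or more of the vehicle tumor CPM, 0 rose and 4 fell (median -0.41), and of the 8 between, 0 were called (median 0.15). The most abundant genes of the list that were not called were *Ephb4*, the receptor for ephrin-B2 that marks veins, at -0.04, *Cd93*, a transmembrane glycoprotein of endothelium and myeloid cells, at 0.16, *Ptprb*, the phosphatase VE-PTP that acts on TIE2, at 0.33 (adjusted p = 0.0694) and *Cd34* at -0.15. *Ptprb* was at 28.2, 21.6 and 25.8 CPM in vehicle tumors and at 29.6, 32.9 and 32.4 CPM in YJ1206 tumors, without overlap.

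**Figure D4:**
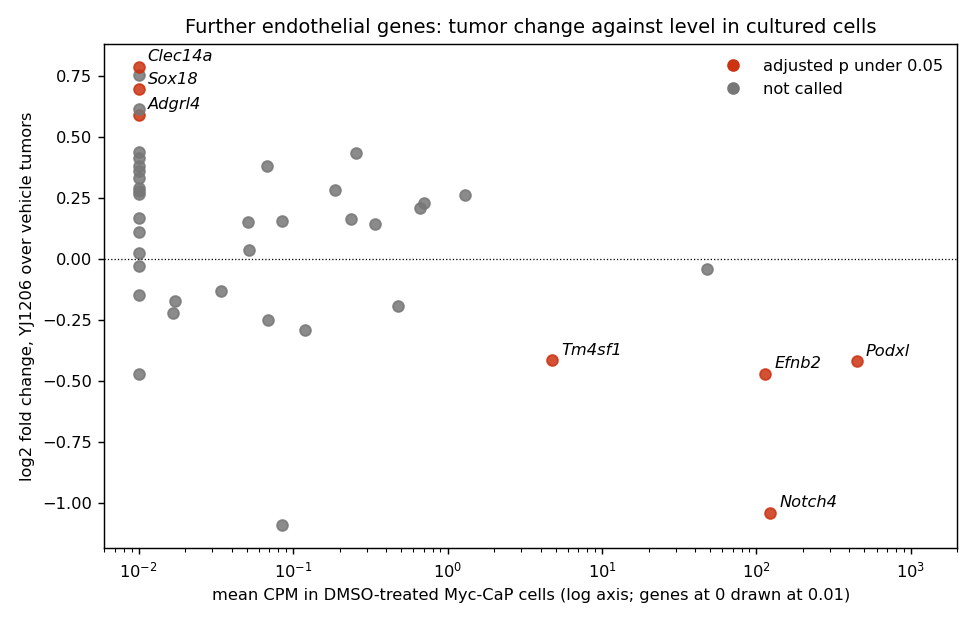
Log2 fold change in YJ1206 over vehicle tumors of each of the 42 further endothelial genes tested, against its mean CPM in DMSO-treated Myc-CaP cells (log axis, genes at 0 drawn at 0.01); red marks an edgeR adjusted p under 0.05. The 3 called higher are at 0 in the cells and the 4 called lower are at 4.77 CPM or more.

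Ligands and coreceptors that act on the members were read from a list of 20 genes, of which 17 were tested. By edgeR 0 rose and 2 fell, 5 had an unadjusted p under 0.05, and DESeq2 called 1 higher and 2 lower. Of all genes tested by edgeR, 11.9% were called higher, 14.9% were called lower and 39.8% had an unadjusted p under 0.05. Fitted values were above 0 for 10 of the 17 and below 0 for 7 (median log2 fold change 0.17). *Tgfb1*, a ligand of the pathway in which endoglin acts, fell from 102, 83.5 and 94.0 CPM to 71.5, 71.0 and 68.4 CPM (log2 fold change -0.40, SE 0.080, edgeR adjusted p = 0.0108). *Hif1a*, the hypoxia-regulated factor that drives *Vegfa*, fell from 180, 203 and 184 CPM to 162, 138 and 148 CPM (-0.34, SE 0.078, adjusted p = 0.0183). Each fell in tumors and was higher in YJ1206-treated cells, at 0.46 and 0.35. The tumor call of each was lost without vehicle library 3 or YJ1206 library 3 and with libraries 1 and 2 alone, that of *Tgfb1* also with vehicle library 2 as the only vehicle library (adjusted p = 0.0625), and that of *Hif1a* also without YJ1206 library 2 (adjusted p = 0.0596) and with a replicate block (0.0516). *Vegfa*, the ligand of VEGFR1 and VEGFR2, was at 234, 233 and 236 CPM in vehicle tumors and at 139, 217 and 197 CPM in YJ1206 tumors. Its groups did not overlap, but the spread of the YJ1206 libraries left it uncalled (-0.35, SE 0.15, adjusted p = 0.127), whereas limma on log2(TPM + 1) called it (-0.52, adjusted p = 0.0474). *Vegfb* was at -0.38, *Epas1*, which encodes HIF-2α, at 0.17 and the semaphorin and VEGF coreceptor *Nrp2* at 0.15, none of them called. *Angpt2* (0.54, edgeR adjusted p = 0.0551), *Vegfd* (0.61, adjusted p = 0.0626) and *Nrp1* (0.40, adjusted p = 0.0904) were not called either.

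Mural cells, the pericytes and smooth muscle cells that wrap vessels, gave a mixed picture. Of 16 genes tested, 3 rose and 2 fell, beside 11.9% of all genes called higher and 14.9% called lower. Fitted values were above 0 for 8 and below 0 for 8 (median log2 fold change 0.07). *Rgs5*, a pericyte marker, fell from 34.9, 30.1 and 31.1 CPM to 23.5, 18.1 and 20.8 CPM (log2 fold change -0.63, SE 0.12, edgeR adjusted p = 0.00854), and was not called by limma on log2(TPM + 1) (-0.33, adjusted p = 0.247). The contractile genes *Tagln* (1.27, SE 0.29, adjusted p = 0.0179) and *Acta2* (0.77, SE 0.23, adjusted p = 0.0468) rose, *Acta2* with overlapping groups, and *Vtn*, encoding vitronectin, rose by the largest fold of the 3 (2.12, SE 0.34, adjusted p = 0.00509). *Tagln* was also higher in YJ1206-treated cells (2.03, edgeR adjusted p = 0.000147), from 5 to 8 counts per DMSO library. The part of the tumor cells in its tumor value was not tested. *Acta2* lost its call without vehicle library 1 or 3 or YJ1206 library 2 or 3 (edgeR adjusted p from 0.104 to 0.141), and *Tagln* lost it without vehicle library 3 or YJ1206 library 2 or 3 (0.0582 to 0.0758) and by limma on log2(TPM + 1) (adjusted p = 0.0509). With vehicle library 2 as the only vehicle library *Rgs5*, *Tagln* and *Acta2* were not called. *Des*, which is also a skeletal muscle gene, was at 66.4, 7.73 and 45.8 CPM in vehicle tumors, in the same order as the muscle transcripts, and at 1.86 to 2.46 CPM in YJ1206 tumors (-4.23). *Pdgfrb*, the pericyte receptor for PDGF-BB, was at -0.05, and *Mcam* (0.42, adjusted p = 0.0514), *Abcc9* (0.21) and *Notch3* (-0.47, adjusted p = 0.0660) were not called.

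Of 12 genes of the vessel basement membrane, 5 rose and 2 fell, with a median of 0.30. Of all genes tested, 11.9% were called higher and 14.9% lower. The collagen IV chains *Col4a1* (0.33) and *Col4a2* (0.42) and the laminin chains *Lama5* (0.46), *Lamb1* (0.62) and *Lamb2* (0.73) rose, and *Lamc1* (-0.52) and *Col18a1* (-0.46) fell. *Lama5* was at 432 CPM, *Lamc1* at 156 CPM and *Lamb2* at 147 CPM in DMSO cells. In YJ1206-treated cells *Col4a1* (log2 fold change 2.65), *Col4a2* (2.19), *Lamb1* (1.99) and *Lamb2* (0.20) were higher, and *Lama5* (-0.56) and *Lamc1* (-0.23) lower. Apart from *Col18a1*, at 0.0684 CPM in DMSO cells, these are therefore not genes of the vessel wall alone. The part of the tumor cells in the tumor values was not tested. Of 7 lymphatic genes 3 were tested and 0 were called by edgeR, with 1 at an unadjusted p under 0.05 and 0 by DESeq2. That gene was *Flt4*, named after its value was seen, which encodes VEGFR3 and had a log2 fold change of 0.42 (adjusted p = 0.0510).

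Markers of other cell types that a tumor piece can hold were read beside the members. Of all genes tested by edgeR, 11.9% were called higher, 14.9% were called lower and 39.8% had an unadjusted p under 0.05. Leukocyte genes (8 tested) gave 0 calls by edgeR, 3 at an unadjusted p under 0.05 and 0 by DESeq2. Fitted values were above 0 for all 8 (median log2 fold change 0.27). Their summed CPM was 330 to 350 in vehicle and 383 to 431 in YJ1206 tumors. The largest part of that sum was *Arhgdib*, at a mean of 209 CPM in vehicle and 219 CPM in YJ1206 tumors. It was also at 99.0 CPM in DMSO cells, so the sum is not of leukocytes alone. *Cd52* was at a mean of 35.4 CPM in vehicle (SD 22.3) and 72.5 CPM in YJ1206 tumors (SD 2.34). Its vehicle libraries 1, 2 and 3 were at 14.9, 59.1 and 32.2 CPM, and it was not called (edgeR adjusted p = 0.107). Of 12 macrophage genes 4 rose, *C1qa*, *C1qb*, *C1qc* and *Fcgr1*, and 0 fell. Fitted values were above 0 for 10 of the 12 (median log2 fold change 0.45). *Lyz2*, the most abundant of the list, was at -0.40 and *Cd14* at -0.35, neither called. The summed CPM of the list overlapped, at 327 to 504 in vehicle and 377 to 502 in YJ1206 tumors. Fibroblast genes summed to 1015 to 2571 CPM in vehicle and 698 to 1584 CPM in YJ1206 tumors, with 1 of 12, *Thy1*, called lower by edgeR, 6 at an unadjusted p under 0.05 and 3 called lower by DESeq2. Fitted values were below 0 for 11 of the 12 (median log2 fold change -0.60). *Vwf* is shared with platelets, and the platelet list had 6 of 12 genes tested, 0 called by edgeR, 0 at an unadjusted p under 0.05 and 0 by DESeq2. *Gp1ba*, *Gp1bb*, *Gp5* and *Gp9* had too few counts to be tested. Of those tested, *Itgb3* was at 82.7 CPM in DMSO cells, while *Pf4* had 0 counts there and a tumor log2 fold change of 0.48 (edgeR adjusted p = 0.146). The list is thus a weak measure of platelets. Red cell genes, a measure of blood in the sample, summed to 1287 to 1722 CPM in vehicle and 423 to 1119 CPM in YJ1206 tumors. The ranges of that sum did not overlap, while of 6 red cell genes tested 0 were called by edgeR, 4 had an unadjusted p under 0.05 and DESeq2 called 1 lower (median log2 fold change -0.94). Of 4 adipocyte genes tested 1 rose and 1 fell. Of 10 epithelial and tumor cell genes 6 were tested, and *Cldn4*, a tight junction claudin, was among those that rose. The defining epithelial markers *Epcam*, *Cdh1* and *Krt18* were at or below 1.32 CPM in the mean of each tumor group, with *Cldn7* at 0 counts. The epithelial keratins *Krt8*, at a mean of 75.8 CPM in vehicle and 90.7 CPM in YJ1206 tumors, and *Krt19*, at 110 and 113 CPM, were well above that level, and neither was called. The part of these cell types in the member values was not tested.

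**Figure D5:**
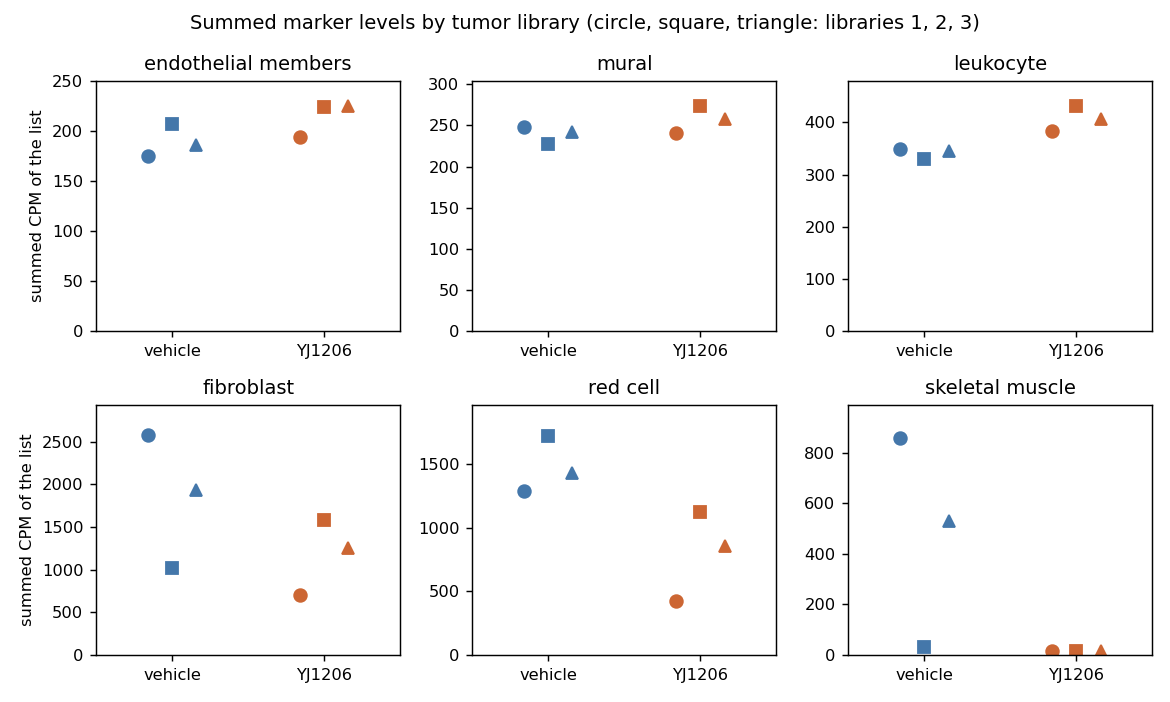
Summed CPM of 6 marker lists in each tumor library (points, shaped by library number; axes start at 0). The endothelial sum ranges from 175 to 207 in vehicle and from 194 to 225 in YJ1206 tumors with overlapping groups, while skeletal muscle is high in vehicle libraries 1 and 3.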

How the data were processed

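RNA was sequenced in 6 libraries of Myc-CaP tumors and 6 of Myc-CaP cells after ribosomal RNA depletion. The authors quantified reads with kallisto on GRCm38/mm10 (version and annotation release not given in the sources used here) and deposited, for each gene, fractional estimated counts and TPM values. The deposited estimated counts were rounded and tested by the quasi-likelihood method of edgeR (version 4.0.16, R 4.3.3) after filterByExpr and TMM scaling, with Benjamini-Hochberg adjustment over all genes tested and a threshold of 0.05, separately for tumors and cells. CPM uses the TMM library sizes of the fitted genes. Log2 CPM for correlations used a prior count of 2. Deposited TPM values served for levels between genes and for limma 3.58.1 on log2(TPM + 1) and log2(TPM + 0.1). DESeq2 1.42.0, other scalings, no filter, a replicate block and left-out libraries were alternatives. The main edgeR fits of tumors and of cells were each tested on simulated data, and the alternatives and the fit over both materials were not. A count of 0 was read as up to 3 counts per library, and ratios carry exact 95% binomial counting intervals. For the fit over both materials the tables were joined by gene identifier without its version, which differed for 72 of 11307 genes. Gene identifiers matched GENCODE vM21 by version for all 10 members.

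The members and gene lists were chosen with earlier results of these data known. Named genes were the 10 members, the called genes and up to 4 most abundant others of the further endothelial, ligand and mural lists, and the 10 genes most alike. Genes named from the basement membrane, lymphatic and other cell type lists were chosen after their values were seen. They were called, define the cell type or weigh on the reading of their list. *Angpt2*, *Vegfd* and *Nrp1* of the ligand list were also chosen after their values were seen. A gene of the epithelial and tumor cell list is not reported here. Replicate numbers did not pair the samples. Doses and times come from the methods.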

Additional observations from a re-analysis of the deposited data

Results flagged for a closer look

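The response to YJ1206 was compared between tumors and cultured cells in a fit with an interaction term, for 13 genes with enough counts in both. They came from the members and the called or most abundant genes of the further endothelial, ligand and mural lists. For 10 of them the difference passed the threshold (edgeR, Benjamini-Hochberg adjustment over 11307 genes), as it did for 62% of all these genes, so such a difference is common here. *Eng* differed by 1.38 on the log2 scale (tumors minus cells, adjusted p = 0.00134), with -1.09 in cells and 0.28 in tumors. Of the further endothelial genes, *Notch4* differed by 1.54 (0.000163 adjusted), *Efnb2* by 0.86 (2.46e-05 adjusted) and *Tm4sf1* by 2.91 (4.96e-07 adjusted), each called lower in both materials and less so in tumors. *Podxl* differed by -0.35 (0.0411 adjusted). Of the ligand and hypoxia genes, *Epas1* differed by 1.98 (4.20e-05 adjusted) and *Vegfb* by 0.76 (0.0109 adjusted), while *Hif1a* differed by -0.69 (1.39e-05 adjusted), *Tgfb1* by -0.85 (1.28e-05 adjusted) and *Vegfa* by -0.67 (0.00636 adjusted). In 5 of the 10 the fitted directions were opposite. Dose, duration, material and cell composition all differ between the experiments, and their parts were not tested.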

How the results depend on the processing

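In tumors 4176 genes were called, 1877 to 5724 with 1 library left out (1938 without vehicle library 3, 2739 without YJ1206 library 2, 1877 without YJ1206 library 3), 1 with libraries 1 and 2 alone and 2635 with vehicle library 2 as the only vehicle library, an alternative added after the data were seen. The 1 member called became 0 with no filter, with limma on log2(TPM + 1) or log2(TPM + 0.1), with libraries 1 and 2 alone and with vehicle library 2 alone, and ranged from 0 to 2 with 1 library left out. *Cdh5* had an adjusted p from 0.0323 to 0.406 over its 15 alternatives, all with a fitted value above 0. The 7 further endothelial calls became 3 with the replicate block, 0 with libraries 1 and 2 alone, 3 with vehicle library 2 alone, and 1 to 7 with 1 library left out. With the replicate block, which no correlation between same-numbered libraries backs (from -0.03 to 0.003 in tumors), *Vwf* was the 1 member called (adjusted p = 0.0240) and *Cdh5* was not (0.0826). With vehicle library 2 alone, *Tek* (-0.16), *Cd34* (0.11) and *Vegfb* (0.0577) turned direction. With 1 library left out, ranges crossed 0 for *Flt1* (-0.162 to 0.101), *Emcn* (-0.0141 to 0.106), *Ephb4* (-0.115 to 0.0580), *Cd34* (-0.270 to 0.0398), *Epas1* (-0.0289 to 0.344) and *Pdgfrb* (-0.140 to 0.0441). The causes were not tested. Of 553 alternative values for named genes, 444 kept direction and call. In cells *Eng* stayed called in all 13 alternatives (-1.28 to -0.60). The scale mattered for the split of calls: 44.4% of tumor calls were higher, 34.5% with limma on log2(TPM + 1) and 33.8% on log2(TPM + 0.1), and in cells 49.7%, against 36.1% with total counts, 29.2% on log2(TPM + 1) and 29.2% on log2(TPM + 0.1), where the median of all genes moved to -0.20, -0.24 and -0.30. *Tek* and *Erg* rest on the fewest counts of the members, 48 to 119 per tumor library.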
